A study of Mus musculus with 8 samples.

Results

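The genes described here encode the subunits of potassium channels and the proteins that regulate those channels, in astrocytes of the mouse grown under 2 culture conditions. They were taken as every gene whose symbol starts with Kcn, apart from Kcnj8, Kcnj10, Kcnj13 and Kcnk2, with at least 1 TPM in at least 2 of the 8 libraries. TPM is a transcript level adjusted for transcript length, whose sum is equal in every library. Of 95 such symbols 4 were left out by name and 33 of the other 91 lay below that level, which left 58 genes of the 14904 that passed the same filter and of 23420 gene IDs in all. RNA was sequenced from astrocytes in MGS, a culture that the sample descriptions call soft and whose letters the labels do not spell out, and from astrocytes in conventional culture (CV, called hard). The days of sampling were 5 and 32, which gives 4 groups of 2 libraries, and the labels name no genotype and no further treatment. The labels do not say whether the 2 libraries of a group came from separate cultures, so the p-values describe nothing beyond the spread of these libraries, which may be technical.

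Potassium channels carry potassium out of or into cells and set the membrane potential. Astrocytes are known for a high resting potassium conductance, carried mainly by inward rectifiers and two-pore leak channels, with which they take up the potassium that active neurons release. Voltage-gated channels open on depolarization, calcium-activated channels open when internal calcium rises, and accessory subunits tune the gating and the surface delivery of the pore-forming subunits. The 58 genes comprised 25 of 40 voltage-gated genes, 6 of 12 inward rectifiers, 7 of 13 two-pore genes, 7 of 8 calcium-activated or related sodium-activated genes and 13 of 17 regulators, and the antisense RNA gene Kcnq1ot1 did not reach the filter.

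Aligned sequence ranged from 2.15 to 4.69 gigabases per library, and 12912 to 14441 genes reached 1 TPM. The replicates of a group differed, over the 58 genes, with an SD of 0.146 on the log2 scale in MGS at day 5, 0.232 in CV at day 5, 0.126 in MGS at day 32 and 0.428 in CV at day 32. The CV libraries of day 32 were thus the least alike. Among 8 astrocyte markers, MGS exceeded CV for 5 and fell short for 1 at day 5, and for 7 and 1 at day 32. Markers of other cells moved too: all 10 microglia and macrophage markers rose in CV between the days, from a summed 124.5 to 144 TPM to 11250 to 13240 TPM, against 882 to 1010 TPM in the 4 MGS libraries. All 6 oligodendrocyte, all 6 meningeal fibroblast, all 4 ependyma and all 5 choroid plexus markers were higher in MGS than in CV on both days. On day 5 and day 32 in turn, 3 and 4 of 4 mural cell markers were higher, and 3 and 2 of 5 endothelial markers (1 was lower at day 5). Of 5 oligodendrocyte precursor markers 2 and 4 were higher (2 and 1 lower), and of 6 neuronal markers 2 and 3 (3 and 1 lower). In bulk RNA, fewer cells of a type and less RNA per cell cannot be told apart.

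**Figure D1:**
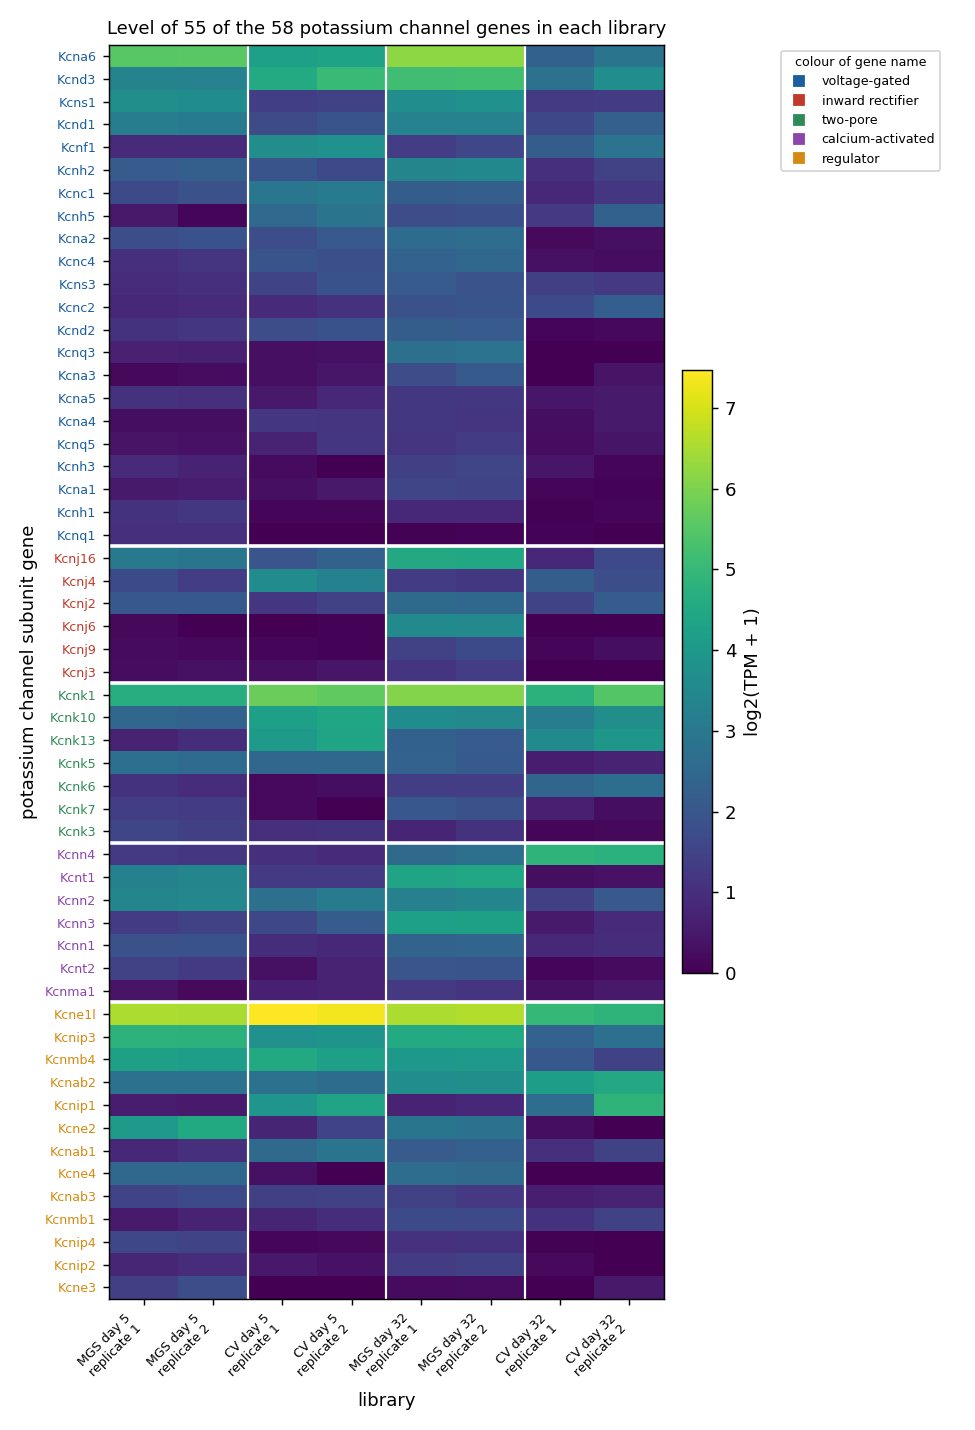
Level of 55 of the 58 potassium channel genes (rows, grouped by class and ordered by mean level) in the 8 libraries (columns), as log2(TPM + 1). The MGS columns of day 32 are the ones with the most genes at 1 TPM or more, 53 and 54 of all 58, and the CV columns of day 32 those with the fewest, 26 and 28.

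The number of expressed channel genes differed between the groups. At day 5, 39 and 40 of the 58 genes reached 1 TPM in the MGS libraries and 35 and 37 in the CV libraries. At day 32 the counts were 53 and 54 in MGS and 26 and 28 in CV. The choice of genes used the same 1 TPM, so this gap is in part set by it and is given as a description. Over all genes 14434 and 14441 reached 1 TPM in MGS and 12912 and 13356 in CV on that day. There were 12 genes that reached 1 TPM in both libraries of 1 group and in no library of another, and that group was an MGS one for each: Kcna1, Kcna3, Kcnh3, Kcnq3, Kcnj3, Kcnj6, Kcnj9, Kcnma1 and Kcnip2 at day 32, and Kcnh1, Kcnq1 and Kcne3 at day 5. A gene that passed the filter through a single group had to differ. These 12 are among the counts of differences below, which are given as descriptions. Their p-values and ranks below are likewise descriptions and no evidence of a difference. The same count was not made over all genes, so the share to set beside it is not known. At day 5 too, more of all genes reached 1 TPM in MGS (13858 and 13958) than in CV (13199 and 13297). Closest to the filter, Kcnq1 passed with 1.04 and 1.05 TPM in the MGS libraries of day 5, while Kcnj12 and Kcnj11 missed it with a second highest value of 0.965 and 0.958 TPM. The highest values of Kcnj12, 0.965 and 1.16 TPM, were those of the CV libraries of day 32. Among the genes below it, Kcnv2, Kcnk9, Kcnk15, Kcnk16 and Kcnk18 were listed at 0 in all 8 libraries, and Kcnq1ot1 peaked at 0.434 TPM.

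The summed TPM of all 58 genes was 354.5 and 358.5 in MGS and 456 and 470.1 in CV at day 5, and 562 and 576 in MGS against 186 and 263 in CV at day 32. CV was thus above MGS at day 5 and below it at day 32, without overlap. A single regulator, Kcne1l, held 25.9% and 25.2% of the sum in MGS and 38.6% and 34.4% in CV at day 5. The leading gene of a class also differed by culture: Kcna6 led the voltage-gated class in all 4 MGS libraries and Kcnd3 in all 4 CV libraries, while Kcnk1 led the two-pore class in all 8.

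**Figure D2:**
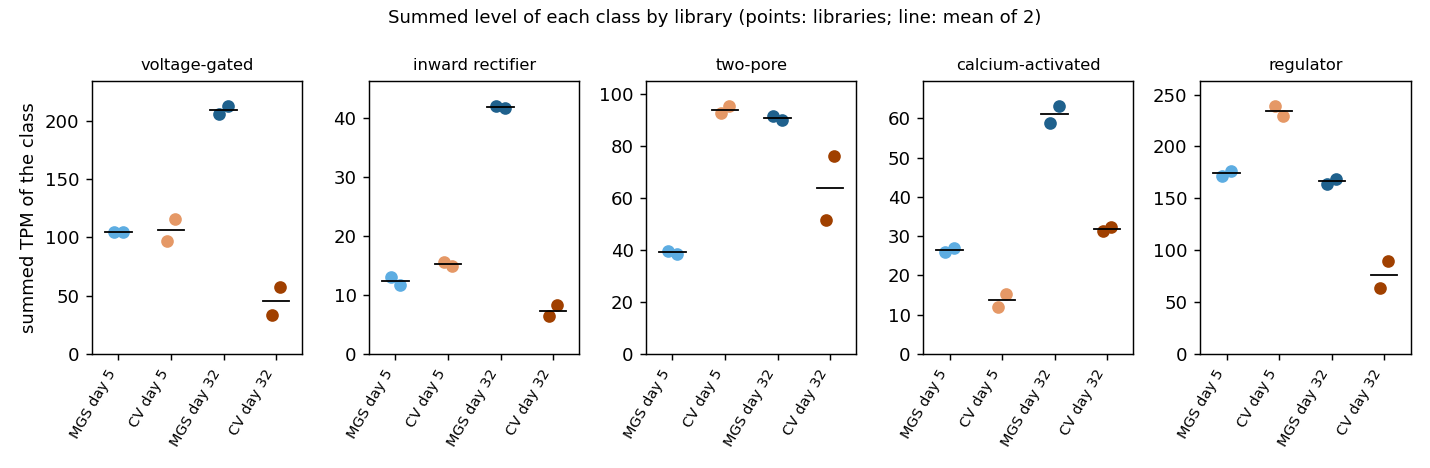
Summed TPM of each class (vertical axes, from 0) in each library, by group; points are libraries and lines the mean of 2. Voltage-gated sums lay at 104 to 105 in MGS and 96.6 to 116 in CV at day 5, and at 206 to 213 and 33.4 to 57.1 at day 32; the calcium-activated sums lay closer at day 32, at 58.9 to 63.2 and 31.3 to 32.4.

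Differences were tested on log2(TPM + 1) with limma, in 1 model of the 4 group means fitted to all genes. A gene is called where the Benjamini-Hochberg adjusted p over the 14904 genes is under 0.05. Each gene has 1 estimate of spread shared by the 4 groups, so its SE is the same on both days. The replicates of CV at day 32 differed most, so such an SE can be too small there and too large in MGS. At day 5, MGS was above CV in 22 of the 58 genes and below it in 18. Of all genes tested 48.9% were called, 22.5% higher and 26.4% lower, so calls were frequent throughout. The median difference was 0.15 for the 58 genes and -0.14 for all genes on the log2 scale.

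At day 32, MGS was above CV in 45 of the 58 genes and below it in 7. Of all genes 67.6% were called, 52.8% higher and 14.8% lower, and the median difference was 1.25 for the 58 genes and 0.56 for all genes. Median-of-ratios scaling, which takes out that shared shift (its median over all genes is -0.0029), left 41 of the 58 genes higher and 9 lower. Over all genes it gave 35.1% higher and 34.9% lower. As a share of the genes called, it moved those higher from 78.0% to 50.1% over all genes. Correcting for the length and GC content of transcripts left 30 higher and 15 lower. Over all genes that correction gave 30.7% higher and 39.4% lower. Under every scaling tried, 27 of the 45 genes called higher and all 7 called lower kept their calls. Of the 34 genes with a mean of at least 2 TPM over the 8 libraries, 26 were higher and 6 lower at day 32, and 10 and 13 at day 5.

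The difference between cultures depended on transcript length across all genes, and these genes are long. Their longest transcripts had a median of 3976.5 bases, against 3318 bases over the genes tested, and 40 of the 58 lay above the latter. At day 32 the median difference over all genes went from -0.15 in the eighth of genes with the shortest transcripts to 1.37 in the eighth with the longest. Of the 11 channel genes in that longest eighth, 6 lay above its median and 10 were called higher, where 82.3% of all genes in it were. At day 5 the slope was the other way, from 0.11 to -0.49. The part of transcript length in the results was not tested.

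**Figure D3:**
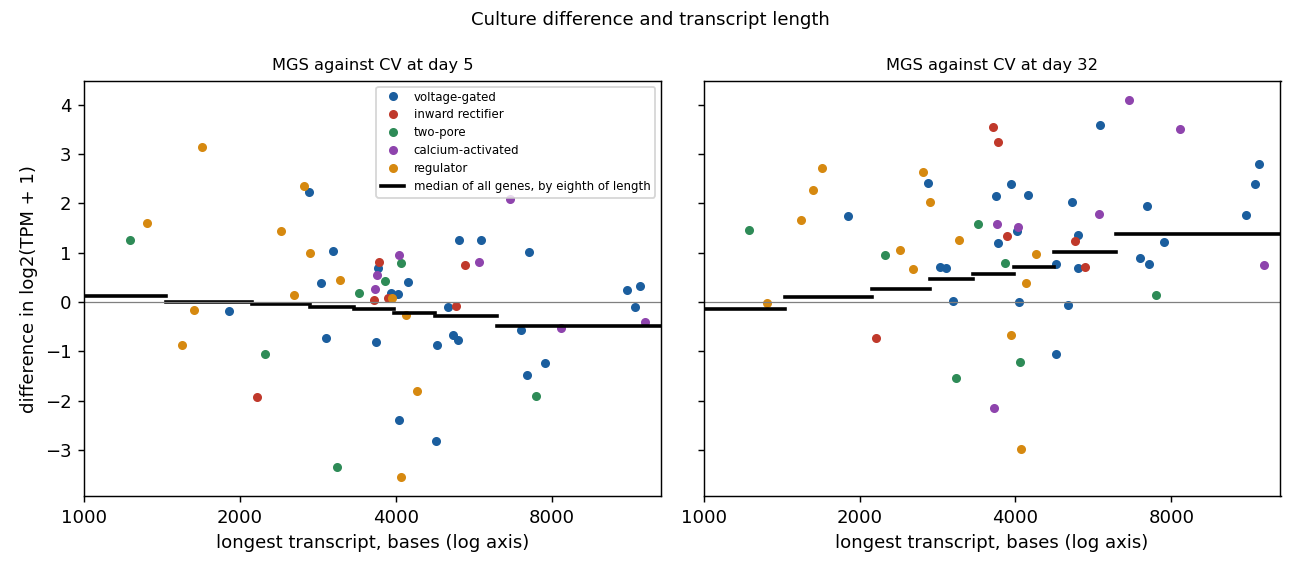
Difference between MGS and CV in log2(TPM + 1) for each of the 58 genes (points, coloured by class) against the length of its longest transcript, at day 5 and at day 32. Black lines give the median of all genes in each eighth of transcript length, which fell from 0.11 to -0.49 at day 5 and rose from -0.15 to 1.37 at day 32.

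Of the 25 voltage-gated genes, MGS was above CV in 8 and below it in 10 at day 5, and in 21 and 1 at day 32. For this class and those below, the shares over all genes were 22.5% and 26.4% at day 5, and 52.8% and 14.8% at day 32. The median length in this class was 4792 bases. At day 32 the length and GC correction took the call from Kcna4, Kcnc1, Kcnq5 and Kcns3, among others, and turned Kcnh1 to lower. Kcna6, a member of the Shaker family of delayed rectifiers, was the most abundant voltage-gated gene in MGS. It stood at 45.4 and 45.9 TPM in MGS and 17.7 and 19.3 TPM in CV at day 5, and 71.8 and 72.1 TPM against 3.99 and 6.38 TPM at day 32. It was higher in both MGS libraries on both days. The difference was 1.26 ± 0.19 (SE from the shared spread, n = 2 against 2) on the log2 scale at day 5 (limma, adjusted p = 0.00131). At day 32 it was 3.59 ± 0.19 (limma, adjusted p = 5.63e-06). Kcns1, an electrically silent subunit that modifies other voltage-gated subunits, stood at 11.9 and 11.4 TPM in MGS against 1.61 and 1.80 TPM in CV at day 5, and at 11.6 and 12.6 against 1.4 and 1.5 TPM at day 32. Its levels hardly moved with time, and the difference was 2.23 ± 0.14 and 2.42 ± 0.14 on the 2 days (limma, adjusted p = 1.8e-05 and 8.59e-06).

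The pore subunit genes Kcnd3, Kcnd2, Kcnc4 and Kcnc1 were lower in MGS at day 5 and higher at day 32, and of these Kcnc4 and Kcnd3 kept both calls under every scaling tried. Their relative Kcnd1, also of the A-type Kv4 family, was instead higher in MGS on both days (1.26 ± 0.23 and 1.35 ± 0.23, limma, adjusted p = 0.00341 and 0.00167). Kcnd3, which encodes the Kv4.3 subunit of the transient A-type current, stood at 9.03 and 9.01 TPM in MGS and 22.6 and 32.6 TPM in CV at day 5, and at 34.9 and 35.6 against 5.97 and 11.6 TPM at day 32. The order of the groups turned, with no overlap on either day. The difference was -1.49 ± 0.29 at day 5 and 1.95 ± 0.29 at day 32 (limma, adjusted p = 0.00443 and 0.00084). Kcnd2, its Kv4.2 relative, gave 1.15 and 1.26 against 2.40 and 2.66 TPM, then 3.61 and 3.42 against 0.103 and 0.109 TPM. Its difference went from -0.68 ± 0.11 to 2.03 ± 0.11 (limma, adjusted p = 0.00226 and 7.24e-06), and at day 5 the call was lost with the length and GC correction (-0.35, adjusted p = 0.159). The Kv3 gene Kcnc4 gave 1.01 and 1.18 against 2.87 and 2.52 TPM and then 4.09 and 4.72 against 0.257 and 0.188 TPM, a difference of -0.82 ± 0.13 and 2.14 ± 0.13 (limma, adjusted p = 0.00171 and 1.01e-05).

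Kcnc1, a Kv3 gene of fast-firing neurons, followed at 2.22 and 2.62 against 6.59 and 7.42 TPM and then 3.61 and 3.77 against 0.808 and 1.26 TPM. Its difference was -1.23 ± 0.16 at day 5 and 1.22 ± 0.16 at day 32 (limma, adjusted p = 0.000675 and 0.000496), but the later one became -0.24 with the length and GC correction. In all, 12 of the 58 genes (20.7%) were lower in MGS at day 5 and higher at day 32, a pattern called in 9.31% of all genes. They included Kcna4, Kcnc1, Kcnc4, Kcnd2, Kcnd3, Kcnq5, Kcns3, Kcnk1, Kcnma1, Kcnab1 and Kcne1l, and the change of the difference between the days was itself called in all 12. Under every scaling tried, both calls held for 3 of them, Kcnc4, Kcnd3 and Kcne1l.

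Kcnf1, an electrically silent subunit, was the voltage-gated gene that stayed lower in MGS. It stood at 0.891 and 0.893 TPM in MGS and 12 and 12.6 TPM in CV at day 5, and at 1.54 and 2.01 against 3.59 and 6.19 TPM at day 32. CV libraries were the higher on both days, by less at the later one, with differences of -2.81 ± 0.22 and -1.06 ± 0.22 (limma, adjusted p = 5.29e-05 and 0.00439). Kcnh5, of the ether-a-go-go family, was lower in MGS at day 5, with 0.410 and 0.101 against 4.89 and 6.29 TPM (difference -2.39 ± 0.33, limma, adjusted p = 0.000849). At day 32 it gave 2.43 and 2.52 TPM in MGS, between the 1.37 and 4.02 TPM of the CV libraries, with a difference of 0.01 ± 0.33 (adjusted p = 0.982), and the change of the difference between the days was called. Without the second CV library of day 32 the later difference was 0.55 and called (adjusted p = 0.0415), while it was -0.74 and called with the length and GC correction (adjusted p = 0.0199).

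The Kv7 genes, of which Kcnq3 encodes a subunit of the slow M-type current, went separate ways. Kcnq3 was listed at 0 in both CV libraries of day 32 and stood at 5.77 and 6.11 TPM in the MGS libraries of that day, against 0.596 and 0.563 TPM in MGS and 0.246 and 0.266 TPM in CV at day 5. It was thus near absent in every group but the late MGS one; the day 32 call had an adjusted p of 1.28e-06 (limma), and no fold is given against a group listed at 0. The small day 5 difference (0.33 ± 0.10, adjusted p = 0.0294) lost its call without any single library of that day, at an adjusted p of 0.0837 to 0.127. Kcnq1 gave 1.04 and 1.05 TPM in MGS at day 5 and was listed at 0 in both CV libraries, and was at 0.0527 TPM or less in the 4 libraries of day 32. The adjusted p of its day 5 difference was 6.12e-05 (limma); it shares its locus with the antisense Kcnq1ot1, and reads of the 2 cannot be told apart without strand.

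Kcna3, the Shaker-type channel known from T cells and microglia, was at 2.38 and 3.37 TPM in MGS at day 32 and at 0.361 TPM or less in the other 6 libraries. The difference was -0.18 ± 0.17 at day 5 (limma, adjusted p = 0.412) and 1.74 ± 0.17 at day 32 (adjusted p = 0.000117). Kcna3 passed the filter through the late MGS libraries alone. All 10 microglia and macrophage markers went the other way at day 32, higher in CV, and their part was not tested. Kcnc2 was not called on either day, at 0.832 to 1.12 TPM in the libraries of day 5 and 2.22 to 3.70 TPM in those of day 32 (differences -0.11 ± 0.19 and -0.06 ± 0.19, limma, adjusted p = 0.664 and 0.781). At day 32 median-of-ratios scaling gave Kcnc2 -0.52 (adjusted p = 0.00706) and the length and GC correction -1.03 (adjusted p = 0.000121).

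Of the 6 inward rectifiers, MGS was above CV in 2 and below it in 1 at day 5, and in 5 and 1 at day 32. Kcnj16 encodes Kir5.1, the partner of Kir4.1 in the main inward rectifier of astrocytes. It stood at 7.16 and 6.49 TPM in MGS and 2.92 and 4.03 TPM in CV at day 5, and at 21.7 and 21.4 against 0.793 and 2.15 TPM at day 32. MGS libraries were the higher on both days, and the day 32 difference was 3.25 ± 0.27 (limma, adjusted p = 4.68e-05). The day 5 difference of 0.82 ± 0.27 (adjusted p = 0.0405) lost its call without any of the 4 libraries of that day or of the 2 MGS libraries of day 32 (adjusted p from 0.0696 to 0.174).

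Kcnj6, a G-protein-gated GIRK subunit, was all but confined to the late MGS libraries, at 10.9 and 10.4 TPM, and was listed at 0 in both CV libraries of day 32. At day 5 the 4 libraries lay between 0 and 0.117 TPM (difference 0.04 ± 0.11, limma, adjusted p = 0.793). The day 32 call had an adjusted p of 8.66e-07 (limma). Kcnj6 passed the filter through the late MGS libraries alone, so this p-value is a description. Its partners Kcnj3 and Kcnj9 were at 1.19 to 2.18 TPM in MGS at day 32 and at 0.374 TPM or less in the other 6 libraries. Kcnj4, the strong rectifier Kir2.3, was the inward rectifier lower in MGS, with 2.19 and 1.56 against 11.1 and 8.66 TPM at day 5 and 1.5 and 1.31 against 3.56 and 2.46 TPM at day 32. The differences were -1.92 ± 0.20 and -0.73 ± 0.20 (limma, adjusted p = 0.000226 and 0.0152). The later call was lost without either MGS library of day 32 or without the first CV library (values -0.78, -0.67 and -0.53, adjusted p = 0.0576, 0.0911 and 0.0555). Kcnj2, or Kir2.1, gave 3.20 and 3.16 against 1.29 and 1.70 TPM and then 4.99 and 4.76 against 1.88 and 3.52 TPM. Both differences were called, at 0.75 ± 0.22 and 0.70 ± 0.22 (limma, adjusted p = 0.0254 and 0.0238). The first was lost without any of the 4 day 5 libraries or the 2 MGS libraries of day 32 (adjusted p from 0.0507 to 0.114). The second was lost without either MGS library of day 32 (adjusted p = 0.102 and 0.0841) and was 0.38 without the first CV library (adjusted p = 0.0628).

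Among the 7 two-pore genes the split was even at day 5, with 3 above CV in MGS and 3 below, and 4 and 2 at day 32. Kcnk1, the weak inward rectifier TWIK-1 of astrocytes, was the most abundant of them in every library. It stood at 24.2 and 24.0 TPM in MGS and 53.6 and 49.1 TPM in CV at day 5, and at 66.4 and 67.4 against 27.0 and 42.9 TPM at day 32. The order turned between the days, with differences of -1.06 ± 0.20 and 0.95 ± 0.20 (limma, adjusted p = 0.00399 and 0.00447). With median-of-ratios scaling the later one was 0.33 and not called (adjusted p = 0.0544), and without the first CV library of day 32 it was 0.63 and called (adjusted p = 0.00114). Kcnk10, the mechanosensitive TREK-2, gave 4.52 and 4.15 against 17.6 and 20.4 TPM at day 5, a difference of -1.90 ± 0.20 (adjusted p = 0.000231). At day 32 its MGS libraries, at 11.5 and 10.5 TPM, lay between the CV libraries, at 8.04 and 11.9 TPM, and the difference was 0.15 ± 0.20 (limma, adjusted p = 0.536). That value was 0.40 and called without the second CV library of day 32 (adjusted p = 0.0399), and it was -0.43 with median-of-ratios scaling and -1.23 with the length and GC correction, both called (adjusted p = 0.0119 and 4.57e-05).

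Kcnk13 and Kcnk6 encode THIK-1 and TWIK-2, two-pore channels known from microglia and macrophages. Kcnk13 stood at 0.677 and 0.967 TPM in MGS and 15.5 and 19.6 TPM in CV at day 5, and at 3.97 and 3.44 against 10.9 and 14.6 TPM at day 32. It was lower in MGS on both days, with differences of -3.35 ± 0.20 and -1.53 ± 0.20 (limma, adjusted p = 1.5e-05 and 0.0005). Kcnk6 stood at 1.14 and 0.939 TPM in MGS and 0.137 and 0.222 TPM in CV at day 5, and at 1.58 and 1.54 against 4.42 and 5.54 TPM at day 32. It was the 1 gene of the 58 that was higher in MGS at day 5 and lower at day 32, with differences of 0.79 ± 0.14 and -1.22 ± 0.14 (limma, adjusted p = 0.0026 and 0.000209), and the day 5 call was lost with quantile normalization. The summed microglia and macrophage markers were low in CV at day 5, where Kcnk13 was high, and high in CV at day 32, where both genes were above MGS; their part in these results was not tested.

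The pH-sensitive leak channels Kcnk5 and Kcnk3 (TASK-2 and TASK-1) were lowest in the late CV libraries. Kcnk5 gave 5.61 and 5.07 against 4.49 and 4.74 TPM at day 5, which was not called (0.17 ± 0.14, limma, adjusted p = 0.343), and 4.04 and 3.37 against 0.526 and 0.632 TPM at day 32 (1.57 ± 0.14, adjusted p = 7e-05). Kcnk3 gave 1.95 and 1.66 against 1.02 and 1.15 TPM and then 0.724 and 1.11 against 0.102 and 0.112 TPM, a difference of 0.42 ± 0.13 and 0.79 ± 0.13 (limma, adjusted p = 0.0324 and 0.00155). Its day 5 call was lost without any single library of that day (adjusted p from 0.0653 to 0.159), and neither call held with the length and GC correction. Kcnk7, a subunit without current of its own when expressed alone, gave 1.59 and 1.51 against 0.140 and 0 TPM and then 3.05 and 2.60 against 0.578 and 0.220 TPM (1.25 ± 0.15 and 1.46 ± 0.15, limma, adjusted p = 0.000472 and 0.000153). The day 32 call of Kcnk7 was lost with quantile normalization.

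In the calcium-activated class of 7 genes, 3 exceeded CV in MGS and 1 fell short at day 5, against 6 and 1 at day 32. Kcnt1, the sodium-activated channel Slack, had the largest called difference of the 58 genes at day 32, with 19.4 and 21.3 TPM in MGS against 0.212 and 0.276 TPM in CV. At day 5 it stood at 8.69 and 9.80 against 1.41 and 1.40 TPM, so MGS was above CV on both days. The differences were 2.09 ± 0.14 and 4.10 ± 0.14 (limma, adjusted p = 2.54e-05 and 1.12e-06), and the ratio of mean TPM at day 32 was 83.5. Kcnt2, its relative Slick, gave 1.69 and 1.42 against 0.267 and 0.671 TPM and then 2.88 and 2.86 against 0.0763 and 0.161 TPM (0.81 ± 0.15 and 1.79 ± 0.15, limma, adjusted p = 0.00387 and 5.16e-05). Its day 5 call was lost with quantile normalization.

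The 4 KCNN genes, whose channels open through bound calmodulin, split at day 32. Kcnn3, a small-conductance SK channel, stood at 1.5 and 1.71 TPM in MGS and 2.1 and 3.53 TPM in CV at day 5, and at 17.5 and 18.1 against 0.465 and 0.870 TPM at day 32. MGS was far above CV at the later day, by 3.51 ± 0.21 (limma, adjusted p = 1.07e-05), while the day 5 difference of -0.53 ± 0.21 was not called (adjusted p = 0.0782). Without the first CV library of day 5 that difference was -0.80 and called (adjusted p = 0.0247), and it was called without either CV library of day 32 (adjusted p = 0.0435 and 0.0434). Without the second CV library of day 5 it was -0.25 and not called (adjusted p = 0.397). Kcnn4, the intermediate-conductance channel of blood and immune cells, went the other way, with 1.40 and 1.26 against 1.07 and 0.846 TPM at day 5 and 4.98 and 5.75 against 27.9 and 26.5 TPM at day 32. No difference was called at day 5 (0.26 ± 0.15, limma, adjusted p = 0.193), and CV was the higher at day 32 (-2.15 ± 0.15, limma, adjusted p = 1.87e-05). In the CV libraries of day 32 it held 89.0% and 81.7% of the TPM of its class, and all 10 microglia and macrophage markers were higher there too, a part that was not tested.

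The promoters of these KCNN genes are shown because they had the most opposed differences of 1 subfamily at day 32. The RefSeq windows run from 250 bases before to 50 bases after the start of the gene (GRCm38.p6, plus strand for both, chr3:89519914-89520213 for Kcnn3 and chr7:24370013-24370312 for Kcnn4), and capitals mark matches to the motifs searched.
Kcnn3: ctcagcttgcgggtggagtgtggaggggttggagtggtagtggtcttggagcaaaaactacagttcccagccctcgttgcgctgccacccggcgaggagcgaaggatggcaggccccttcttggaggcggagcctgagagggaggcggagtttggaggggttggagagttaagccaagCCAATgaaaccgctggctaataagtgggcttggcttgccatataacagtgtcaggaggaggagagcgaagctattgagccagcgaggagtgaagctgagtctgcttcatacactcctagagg
Kcnn4: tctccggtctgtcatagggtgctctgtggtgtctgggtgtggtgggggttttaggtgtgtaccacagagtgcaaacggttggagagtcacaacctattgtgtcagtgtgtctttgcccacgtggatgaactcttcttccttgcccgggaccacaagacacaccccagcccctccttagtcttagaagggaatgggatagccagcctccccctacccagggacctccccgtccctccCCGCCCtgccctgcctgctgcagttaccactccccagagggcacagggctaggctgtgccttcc
Both strands were searched for the TATA box TATAAA, the GC box GGGCGG, the CAAT box CCAAT and the AP-1 letters TGANTCA, none of which contains another. The Kcnn3 window holds 1 CAAT box and the Kcnn4 window 1 GC box, on the minus strand. Windows were found for 45 of the 58 genes, and 26 of them (57.8%) hold the GC box, against 35.7% of the 32851 windows listed. The CAAT box was found in 28.9% of the channel windows and 37.4% of all, the AP-1 letters in 4.44% and 7.81%, and the TATA box in 2.22% and 13.6%. The median GC content was 62.0% and 52.7% in turn. The windows listed were not limited to genes that passed the filter and can hold several starts of 1 gene. The channel windows are 1 for each gene that passed, so the 2 sets are unlike. The shares are not read as a trait of channel genes. A match is a description of the letters only.

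Kcnn2, the SK channel with the highest level at day 5, gave 9.83 and 9.97 against 5.70 and 7.34 TPM (0.54 ± 0.24, limma, adjusted p = 0.103) at day 5. Without either CV library of day 32 that difference was called (adjusted p = 0.0136 and 0.0138). At day 32 Kcnn2 stood at 8.49 and 9.70 against 1.65 and 3.25 TPM (1.59 ± 0.24, adjusted p = 0.00102). Kcnn1 was called higher on both days, with 2.61 and 2.66 against 0.955 and 0.794 TPM and then 4.21 and 4.37 against 0.764 and 0.950 TPM (0.96 ± 0.12 and 1.51 ± 0.12, limma, adjusted p = 0.00062 and 4.26e-05). Kcnma1, the large-conductance BK channel, was at 0.141 to 0.663 TPM in every library but the late MGS ones, at 1.36 and 1.17 TPM. Its differences of -0.40 ± 0.12 and 0.76 ± 0.12 were called (limma, adjusted p = 0.0277 and 0.00121), and both turned with the length and GC correction (0.13 and -0.91); at 12094 bases its transcript was the longest of the 58. The day 5 call was also lost without the second MGS library or either CV library of that day (adjusted p from 0.06 to 0.162).

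**Figure D4:**
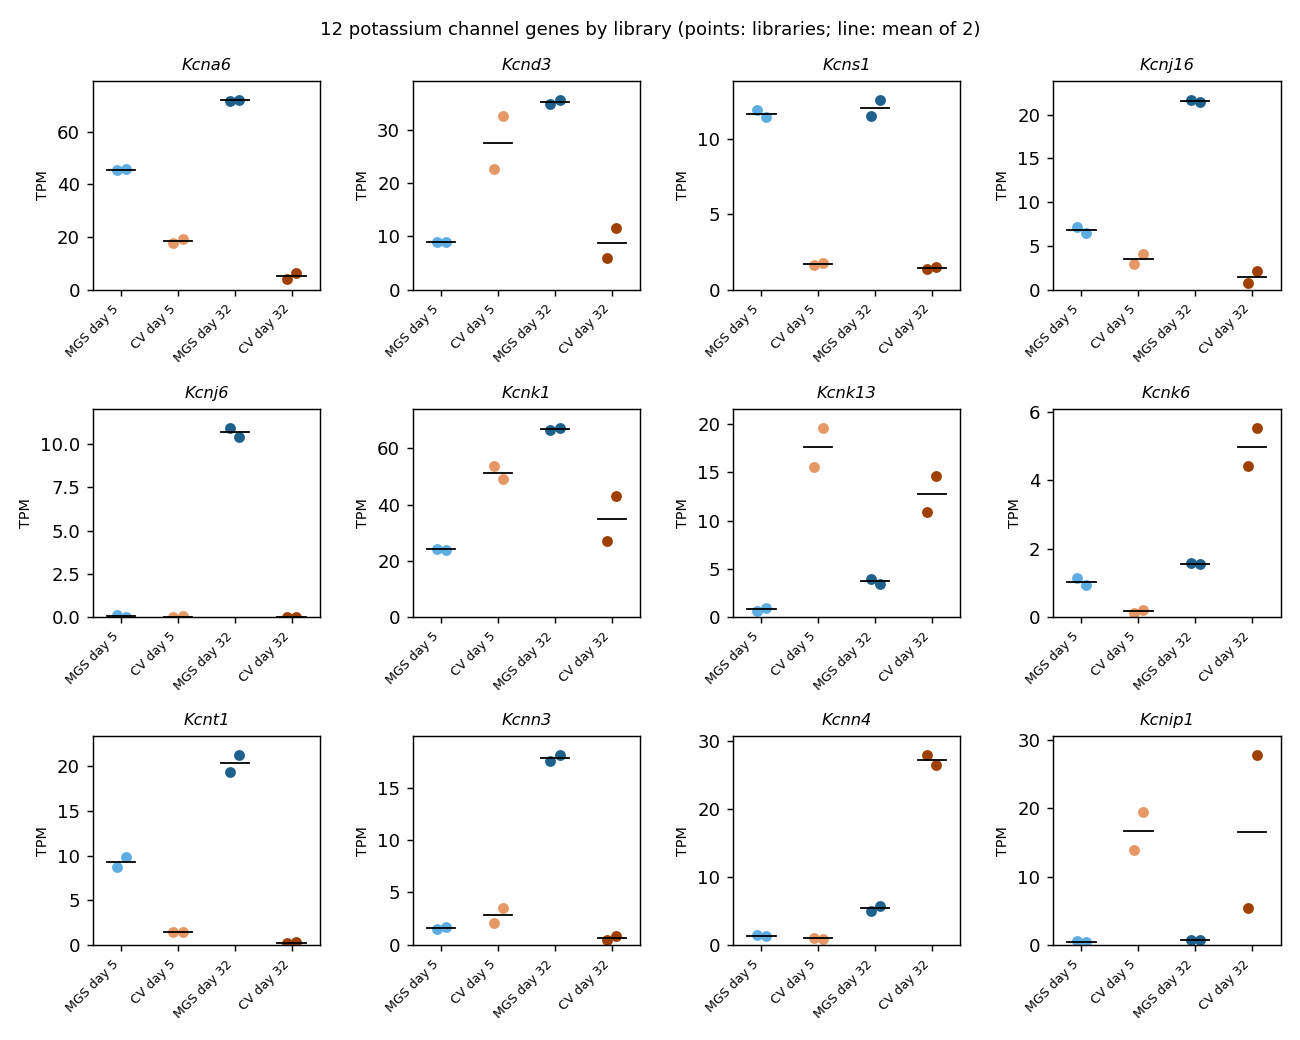
TPM (vertical axes, from 0) of 12 potassium channel genes in each library, by group; points are libraries and lines the mean of 2. Kcnj6 is near 0 outside the MGS libraries of day 32, Kcnn4 reaches 26.5 and 27.9 in CV at day 32, and the CV libraries of that day lie far apart for Kcnip1 (5.35 and 27.8).

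Of the 13 regulators, 6 exceeded CV in MGS and 3 fell short at day 5, against 9 and 2 at day 32. Kcne1l, the X-linked gene of the KCNE family of single-span subunits, was the most abundant member of the class in every library. It stood at 91.8 and 90.5 TPM in MGS and 176 and 162 TPM in CV at day 5, and 92.2 and 96.4 against 30.4 and 27.9 TPM at day 32. Its level in MGS stayed flat while that in CV fell from above to below it. The differences were -0.88 ± 0.10 and 1.66 ± 0.10 (limma, adjusted p = 0.000369 and 1.14e-05). Kcne2 gave 15.3 and 22.1 against 0.707 and 1.81 TPM at day 5 and 6.40 and 5.96 against 0.205 and 0 TPM at day 32 (3.15 ± 0.27 and 2.71 ± 0.27, limma, adjusted p = 8.33e-05 and 0.000118). Kcne2 is known for its expression in choroid plexus epithelium. The 5 choroid plexus markers summed to 12660 and 17060 TPM in MGS and 133 to 143 TPM in CV at day 5. At day 32 they summed to 1990 to 2007 and 98.9 to 118 TPM. Ttr made up most of each sum, and the part of these markers in the result was not tested. Kcne4 was at 4.68 to 5.36 TPM in the 4 MGS libraries and at 0.262 TPM or less in the 4 CV libraries, where both of day 32 were listed at 0 (limma, adjusted p = 1.38e-05 and 5.82e-06). Kcne3 gave 1.68 and 2.48 TPM in MGS at day 5 and was listed at 0 in both CV libraries of that day, with an adjusted p of 0.000363 (limma). It was at 0.421 TPM or less at day 32, where it was not called (adjusted p = 0.932).

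Among the calcium-binding KChIP subunits of Kv4 channels, Kcnip1 and Kcnip3 lay on opposite sides. Kcnip1 gave 0.506 and 0.456 against 13.8 and 19.5 TPM at day 5 and 0.657 and 0.766 against 5.35 and 27.8 TPM at day 32. MGS was the lower on both days, and the CV libraries of day 32 differed widely from each other. The differences were -3.56 ± 0.60 and -2.98 ± 0.60 (limma, adjusted p = 0.00225 and 0.00351), and the later one was -1.89 without the second CV library of day 32 (adjusted p = 0.000185). Kcnip1 overlaps Kcnmb1, which was not called on either day (-0.26 ± 0.16 and 0.38 ± 0.16, limma, adjusted p = 0.204 and 0.0602) and lies on the opposite strand, so reads of the overlap are uncertain. Kcnip3, also known as the transcriptional repressor DREAM, gave 27.5 and 27.1 against 12.8 and 13.6 TPM and then 22.8 and 22.7 against 4.14 and 5.67 TPM (0.99 ± 0.16 and 2.02 ± 0.16, limma, adjusted p = 0.00209 and 4.09e-05).

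The beta subunits of Shaker channels also differed from each other. Kcnab1 gave 0.780 and 1.01 against 4.95 and 6.26 TPM at day 5 and 3.39 and 3.88 against 1.06 and 1.73 TPM at day 32, differences of -1.80 ± 0.19 and 0.96 ± 0.19 (limma, adjusted p = 0.000203 and 0.00297). The later one was 0.22 and not called with the length and GC correction (adjusted p = 0.136). Kcnab2 gave 6.02 and 5.94 against 5.98 and 5.28 TPM, with no difference called (0.08 ± 0.17, adjusted p = 0.728), and then 11.6 and 11.9 against 17.1 and 21.7 TPM. The day 32 difference of -0.67 ± 0.17 (limma, adjusted p = 0.0094) lost its call without either MGS library of that day (-0.65 and -0.69, adjusted p = 0.0664 and 0.0586). Kcnmb4, the neuronal beta subunit of BK channels, was at 16.9 to 22.0 TPM in all 4 libraries of day 5 (-0.17 ± 0.22, limma, adjusted p = 0.556), and at 14.9 and 15.6 against 3.16 and 1.76 TPM at day 32 (2.26 ± 0.22, adjusted p = 0.000102).

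**Figure D5:**
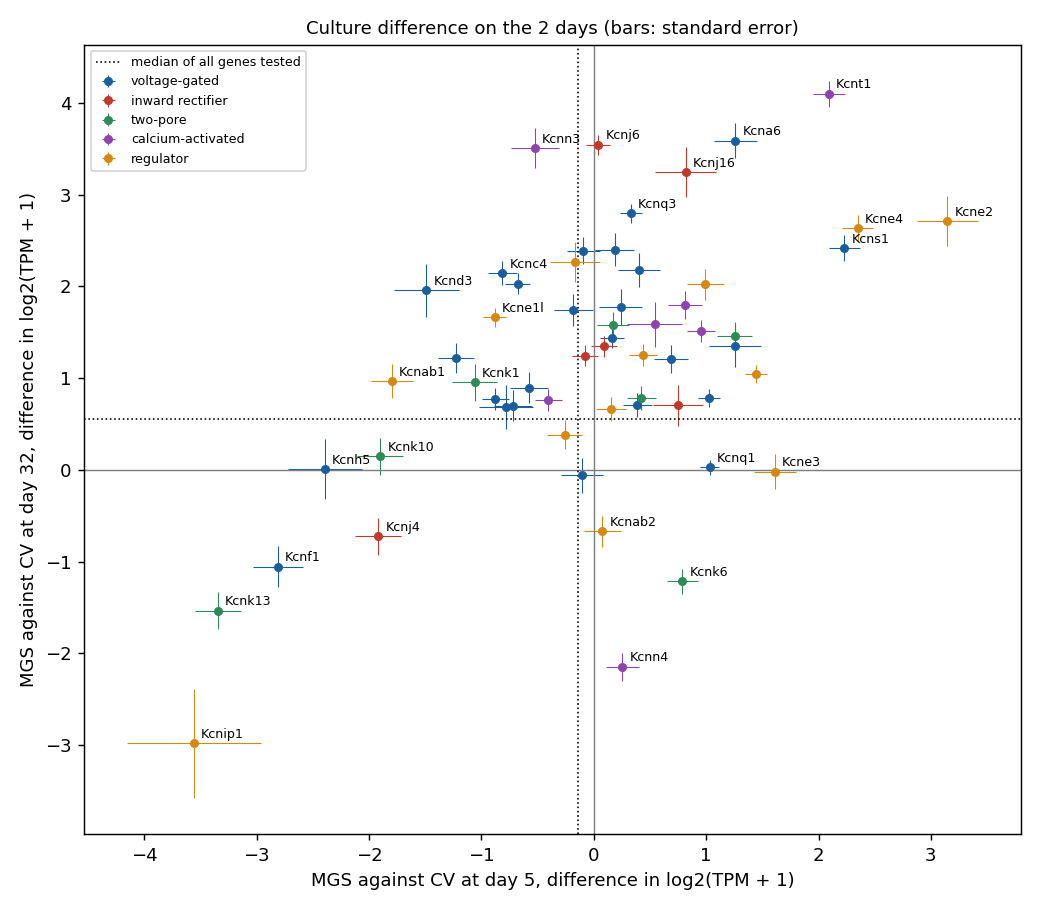
Difference between MGS and CV in log2(TPM + 1) at day 5 (horizontal axis) and at day 32 (vertical axis) for the 58 genes, coloured by class; bars are standard errors and dotted lines the medians of all genes tested, -0.14 and 0.56. Of the genes, 19 were called higher on both days (upper right), 12 lower and then higher (upper left), 4 lower on both days and 1, Kcnk6, higher and then lower.

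Set side by side, the 2 days had 19 genes called higher in MGS on both (32.8%, and 15.6% of all genes) and 4 called lower on both, Kcnf1, Kcnj4, Kcnk13 and Kcnip1 (6.90%, and 6.27% of all genes). A further 14 were called higher at day 32 alone (24.1%, and 27.8% of all genes), and 2, Kcnn4 and Kcnab2, lower at day 32 alone (3.45%, and 5.55% of all genes). These last shares are near or below those of all genes, and the change between the days was called in all 16 of them. Of the genes called higher on both days, 9 kept both calls under every scaling tried, namely Kcna6, Kcnd1, Kcns1, Kcnj16, Kcnn1, Kcnt1, Kcne2, Kcne4 and Kcnip3, and all 4 called lower did.

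With time in MGS, 36 of the 58 genes rose and 7 fell. Of all genes 42.5% were called, 35.0% higher and 7.53% lower, and the median change was 0.75 for the 58 genes and 0.36 for all genes. The largest called rises were those of Kcnj6 (3.46 ± 0.11, limma, adjusted p = 1.3e-05), Kcnn3 (2.85 ± 0.21, adjusted p = 0.000167), Kcnq3 (2.13 ± 0.10, adjusted p = 4.73e-05) and Kcnd3 (1.86 ± 0.29, adjusted p = 0.00275). The largest called falls were those of Kcne2 (-1.43 ± 0.27, adjusted p = 0.00626), Kcne3 (-1.38 ± 0.19, adjusted p = 0.00163), Kcnq1 (-0.98 ± 0.08, adjusted p = 0.000254) and Kcnk3 (-0.55 ± 0.13, limma, adjusted p = 0.015). Kcnj6, Kcnq3, Kcne3 and Kcnq1 each passed the filter through a single MGS group, so their p-values and ranks here are descriptions. Kcne2 moved beside the choroid plexus markers, whose sum went from 12660 and 17060 to 1990 and 2007 TPM. Its call was lost without the second MGS library of day 32 (-1.39, limma, adjusted p = 0.0508). That of Kcnk3 was lost without the first MGS library of either day (-0.48 and -0.41, adjusted p = 0.0946 and 0.1). By class, 18 voltage-gated genes rose and 2 fell, 4 inward rectifiers rose, 4 two-pore genes rose and 2 fell, 6 calcium-activated genes rose, and 4 regulators rose and 3 fell. With median-of-ratios scaling the counts were 29 risen and 11 fallen (22.8% and 22.7% of all genes). With the length and GC correction they were 22 and 8 (22.0% and 25.9% of all genes). Only 4 had fallen without either MGS library of day 32 or without the first of day 5.

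With time in CV the balance was the reverse, with 4 genes risen and 31 fallen. Of all genes 53.7% were called, 16.0% higher and 37.7% lower, and the median change was -0.41 for the 58 genes and -0.31 for all genes. The 4 that rose were Kcnn4 (3.85 ± 0.15, limma, adjusted p = 2.12e-06), Kcnk6 (2.34 ± 0.14, adjusted p = 1.57e-05), Kcnab2 (1.61 ± 0.17, adjusted p = 0.000266) and Kcnc2 (0.96 ± 0.19, adjusted p = 0.00499). All 4 did so under every scaling tried. They rose in the libraries in which all 10 microglia and macrophage markers rose, by a median of 6.06 on the log2 scale. Kcnn4, Kcnab2 and Kcnc2 were also called higher with time in MGS (1.45, 0.87 and 1.00, limma, adjusted p = 0.00053, 0.00655 and 0.00593). Kcnk6 was not called there (0.33, limma, adjusted p = 0.0858). In MGS, 4 of the 10 markers rose and 1 fell. The part of those cells was not tested. The largest called falls were those of Kcnmb4 (-2.61 ± 0.22, adjusted p = 9.93e-05), Kcne1l (-2.49 ± 0.10, adjusted p = 2.84e-06), Kcnc1 (-1.98 ± 0.16, adjusted p = 8.33e-05) and Kcnk5 (-1.83 ± 0.14, limma, adjusted p = 6.68e-05). All 8 astrocyte markers fell as well. By class, 14 voltage-gated genes, 3 inward rectifiers, 4 two-pore genes, 3 calcium-activated genes and 7 regulators fell. Median-of-ratios scaling gave 7 risen and 26 fallen (27.3% and 26.8% of all genes). The length and GC correction gave 13 and 20 (25.1% and 36.2% of all genes). Without the first CV library of day 32 there were 9 risen and 23 fallen, without the second CV library of day 5 4 and 19.

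The change of the culture difference between the days, tested as an interaction, was positive in 40 of the 58 genes and negative in 6. These counts were 34 and 11 with median-of-ratios scaling, which gave 28.6% positive and 31.6% negative over all genes. They were 25 and 12 with the length and GC correction, which gave 32.1% and 25.8% over all genes. Of all genes 62.0% were called, 49.7% positive and 12.3% negative, and the median was 1.3 for the 58 genes and 0.65 for all genes. The largest called values were those of Kcnn3 (4.03 ± 0.30, limma, adjusted p = 8.81e-05), Kcnj6 (3.5 ± 0.16, adjusted p = 1.26e-05, with both late CV libraries listed at 0), and Kcnd3 (3.44 ± 0.41, adjusted p = 0.000566). They were followed by Kcnc4 (2.96 ± 0.18, adjusted p = 4.21e-05), Kcnab1 (2.76 ± 0.26, adjusted p = 0.000236) and Kcnd2 (2.71 ± 0.16, limma, adjusted p = 3.71e-05). Kcnj6 passed the filter through the late MGS libraries alone, so its p-value and rank are descriptions. The 6 negative ones were Kcnq1, Kcnk6, Kcnn4, Kcnab2, Kcne3 and Kcnip4, and they kept their calls under every scaling tried, as did 22 of the 40 positive ones. Those of Kcnab2 (-0.74) and Kcnip4 (-0.40) were nonetheless lost with most single libraries left out. That of Kcnip4 was also lost with the replicate number in the model (limma, adjusted p = 0.0595). By class, the interaction was positive in 18 voltage-gated genes, 5 inward rectifiers, 4 two-pore genes, 6 calcium-activated genes and 7 regulators.

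Other genes of potassium handling were described from a list of 33 pumps, cotransporters, HCN channels, channel partners and scaffolds, of which 26 were tested. At day 5, 9 were higher and 5 lower in MGS, and at day 32, 21 were higher and 1 lower, with a median difference of 0.20 and 1.37, against -0.14 and 0.56 over all genes. Of all genes 22.5% were higher and 26.4% lower at day 5, and 52.8% and 14.8% at day 32. Some of the largest called differences of each day are named. Fxyd1 and Fxyd7, which modulate the sodium pump that takes up potassium, differed by 3.80 and 3.64 at day 5 and by 2.82 and 3.31 at day 32. Dpp6, an accessory subunit of the Kv4 channels, differed by 0.75 at day 5 and by 3.73 at day 32, in the direction of Kcnd2 and Kcnd3 at the later day. The transcriptional repressor Rest, which is known to act on neuronal channel genes, was not called at day 5 (-0.68 ± 0.38, adjusted p = 0.175) and was higher in MGS at day 32 (3.08 ± 0.38, limma, adjusted p = 0.000329).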

How the data were processed

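The 8 RNA-seq libraries were grouped by their titles. TRIzol total RNA went into strand-marking NEB Ultra II libraries, per the labels' protocols. The submitters' processing notes name bcl2fastq, HISAT2 2.1.0, StringTie 1.3.4d and 2 builds, mm10 and hg38. The annotation release and the use of strand in counting are not given in the sources used here. Per the file headers, the authors deposited coverage, FPKM and TPM of every gene row in 1 file per library, and TPM of all libraries in another table.

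Rows of 1 gene ID were summed. Genes with at least 1 TPM in at least 2 libraries (14904) were taken as log2(TPM + 1), so that fold changes of low genes are understated, and the group means were fitted with limma 3.58.1 (R 4.3.3), with 4 residual degrees of freedom, a variance trend and two-sided tests. Adjusted p-values are Benjamini-Hochberg over all genes tested, with 5 contrasts. An exact permutation test of 2 against 2 libraries cannot go below p = 0.333 and was not run. Deposited coverage divided by deposited FPKM gave the aligned bases per library. TPM keeps no depth, so no counting interval is given. None of 8 housekeeping genes was listed at 0. FPKM as deposited served as an alternative.

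The longest annotated transcript gave each gene's length and GC content (99.4% of genes tested, all 58 members). Promoters are from RefSeq. Among the 58 genes 11 overlap another gene on the opposite strand. The members, gene lists and classes were chosen with earlier results of these data known. Values in all libraries are given for up to 4 called genes per class and culture comparison by size (among those whose higher group averages 2 TPM or more), up to 4 each way per day contrast, up to 6 in the interaction, and a fixed set of 15. The 20 alternatives cover pseudocount, filters, scaling, unit, deposited table, length and GC, replicate block, weights, variance trend and each library left out. Quantile normalization was added after seeing the data. The fit was tested on simulated data. A few of the genes counted are not reported here by name.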

Additional observations from a re-analysis of the deposited data

Results flagged for a closer look

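The culture difference changed between day 5 and day 32, by a test of that change (limma, interaction of culture and day), in 46 of the 58 potassium channel genes, 40 with a positive and 6 with a negative value, on log2(TPM + 1). The largest were 4.03 for Kcnn3, 3.5 for Kcnj6, 3.44 for Kcnd3, 2.96 for Kcnc4, 2.76 for Kcnab1 and 2.71 for Kcnd2. Kcnj6 passed the filter through a single group, so its place here is a description. Over all genes tested 62.0% were called in this test. Each group had 2 libraries, so single libraries could not be tested for standing apart.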

How the results depend on the processing

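Of the counts of genes called, those for the culture difference at day 5 and for genes higher at day 32 stayed within 1.5 times their value under all 20 alternatives, and the others moved as follows. Percentages in brackets are the shares over all genes under the same setting. Genes lower in MGS at day 32 were 7 (14.8%) and became 15 (39.4%) with the length and GC correction. They became 11 (35.9%) with quantile normalization, which was added after seeing the data. Genes risen in MGS were 36 (35.0%) and became 22 (22.0%) with the length and GC correction. Genes fallen in MGS (7) became 3 with a pseudocount of 0.1, 4 with a filter of 4 libraries, which tests fewer genes (45 of the 58), 11 with median-of-ratios scaling, 13 with quantile normalization and 4 to 8 with 1 library left out. Genes risen in CV (4) became 7 with median-of-ratios scaling, 13 with the length and GC correction, 7 with quantile normalization and 4 to 9 with 1 library left out. Genes fallen in CV (31) became 20 with the length and GC correction, 18 with array weights and 19 to 30 with 1 library left out. Positive interactions were 40 (49.7%) and became 25 (32.1%) with the length and GC correction. Negative ones were 6 (12.3%). They became 11 (31.6%), 12 (25.8%) and 12 (28.5%) with median-of-ratios scaling, that correction and quantile normalization. The cause was not tested.

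Among the genes whose values in all libraries are given, some differences turned their sign, with a call before or after. With the length and GC correction those of day 32 became -0.24 for Kcnc1, -0.74 for Kcnh5, -0.55 for Kcnq1, -0.24 for Kcnj2, -1.23 for Kcnk10 and -0.91 for Kcnma1, and that of Kcnma1 at day 5 became 0.13. With quantile normalization those of day 32 became -0.96 for Kcnh5, -0.30 for Kcnj2, -0.77 for Kcnk10, -0.0616 for Kcnk3, -0.16 for Kcnma1 and -0.0214 for Kcnab1, and those of day 5 became -0.19 for Kcnq3 and -0.0128 for Kcnk3. Median-of-ratios scaling gave -0.43 for Kcnk10 at day 32.

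The replicate numbers were not taken to pair libraries, since the correlations of same-numbered deviations ran from -0.131 to 0.444. With the replicate block, 103 of the 104 single-gene results of the genes chosen by the rule above kept their direction and side of the threshold, and the day 5 difference of Kcnn3 (-0.53) became called (adjusted p = 0.037, limma). Outside these 104 some calls moved. Kcnmb1 became called at day 32 (limma, adjusted p = 0.037). The interaction of Kcnip4 and the change of Kcnh1 with time in MGS lost their calls (adjusted p = 0.0595 and 0.0531). The replicate block gave 22 genes higher and 19 lower at day 5 (23.3% and 29.65% of all genes). At day 32 it gave 46 and 7 (54.7% and 15.3% of all genes). Together with the length and GC correction the replicate block gave 15 genes lower at day 32 (39.9% of all genes) and 22 risen in MGS (22.6%). In CV 14 rose (25.7%) and 20 fell (36.8%), and 26 interactions were positive (32.8%) and 12 negative (26.6%). The sign changes of that correction were found here too.

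Each group has 2 libraries and TPM holds no counts, so levels near 1 TPM carry an error that was not measured beyond the replicate spread. CV libraries at day 32 differed most from each other and held 2.15 and 2.98 gigabases, against 4.61 and 4.69 in MGS.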
